A study of Mus musculus with 6 samples.

Results

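The insulin-like growth factor (IGF) family was examined in 10 genes, which encode 2 ligands, 3 receptors and 5 binding proteins: Igf1, Igf2, Igf1r, Igf2r, Insr, Igfbp2, Igfbp3, Igfbp4, Igfbp5 and Igfbp7. A gene was taken where a probe set carried its symbol alone, and the brightest on average was kept where there were several. All 10 had such a probe set, among 19938 genes on the array, and all 10 were bright enough to be tested, among 13632 genes. The data are 6 Affymetrix mouse gene arrays of sorted cardiomyocytes from embryos at E12.5, of which 3 are Yap HET and 3 Yap KO, called biological replicates by the submitters. Both groups came from crosses of a Cre driver (TNTCre, cardiac troponin T promoter), a floxed Yap allele and the R26 mTmG reporter, which turns a cell and its descendants green once Cre has acted. The cells are therefore the green fraction of the hearts, marked by past Cre activity, and Yap is deleted only where Cre has acted. The sources used here do not say whether 1 array holds RNA of 1 or several hearts.

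IGF1 and IGF2 are secreted peptides that signal for growth and survival through the receptor tyrosine kinase IGF1R and, in the case of IGF2, through the insulin receptor. IGF2R binds IGF2 and removes it by internalisation rather than passing on a growth signal. The binding proteins hold the ligands outside the cell and release them when proteases cut them, except that IGFBP7 binds insulin-like growth factors only weakly. Activated IGF1R and insulin receptors lead through IRS adaptors to PI3K and AKT, the pathway named in the title of the series together with Yap, and IGF signalling is a known driver of cardiomyocyte proliferation in the embryo.

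Array medians over all probe sets were between 128 and 140. Over the tested genes, log2 intensities of arrays of 1 group correlated at 0.992 to 0.996, and those of different groups at 0.984 to 0.991. Yap1, the targeted gene, read 886, 927 and 871 in Yap HET and 103, 84.7 and 86.6 in Yap KO cells. All 10 cardiomyocyte markers were above the filter, and their summed intensity was between 66123 and 66853 in Yap HET and between 64428 and 66559 in Yap KO cells. Among 8 macrophage and 6 neural crest or neuron markers with a probe set, 3 and 4 were under the filter. Red cell markers did not move alike: the embryonic globin gene Hbb-y read 232, 27.1 and 19.8 in Yap HET and 1295, 450 and 86.3 in Yap KO cells, whereas Slc4a1, a red cell membrane transporter gene, lay between 84.8 and 103 on all 6 arrays. A change in these bulk samples may be a different number of cells of a type or a different amount of RNA per cell, which cannot be told apart.

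Among the binding proteins Igfbp2 fell and Igfbp7 rose in Yap KO cells, and no ligand or receptor passed the test. These 2 of 10 genes compare with 9.93% of all 13632 genes tested that were called (limma with Benjamini-Hochberg adjustment over all genes, adjusted p under 0.05). Igfbp2 alone was called when replicate 2 or 3 of Yap HET, or replicate 2 or 3 of Yap KO, was left out. Without Yap KO replicate 1 there were 3 called members, Igfbp2, Igfbp7 and Igfbp4. In each direction the single member called compares with 5.16% of all genes that were higher and 4.76% that were lower. That near-even split of 704 higher and 649 lower genes became 1055 and 339 with median centring. Of the 10 log2 changes, 5 were positive and 5 negative, with a median of 0.05 against -0.02 over all genes. The groups did not overlap in 6 of the 10 genes, against 33.9% of all genes. In 4 of them all Yap KO values were higher, against 16.7% of all genes, and in 2 all were lower, against 17.2%. The median size of the change, sign aside, was 0.13 in the family and 0.10 over all genes. Each log2 change below is given ± its standard error (SE) and is positive where Yap KO cells were higher. Intensities are linear with the SD of 3 arrays, and 95% confidence intervals are for 1 gene at a time.

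**Figure D1:**
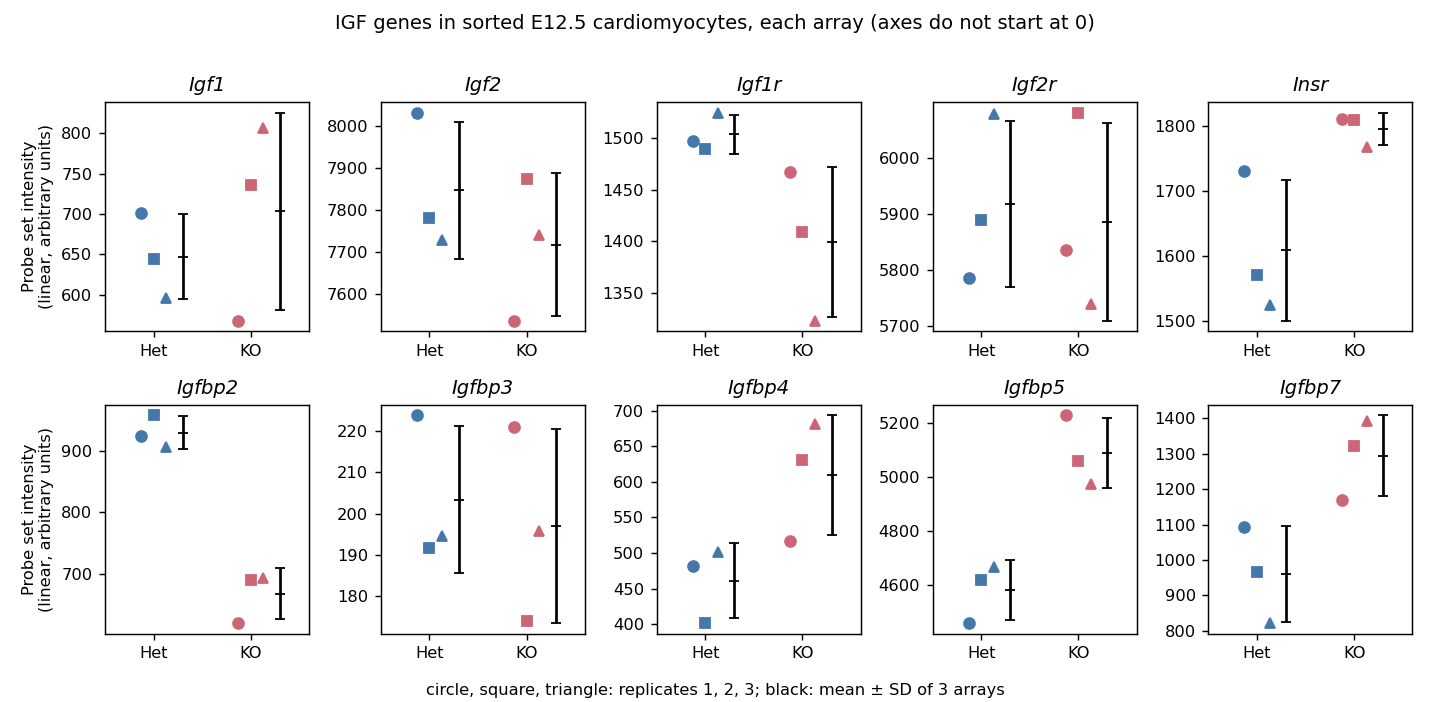
Linear probe set intensity of the 10 IGF genes on each of the 6 arrays, with the mean ± SD of 3 arrays per group in black; each panel has its own axis, which does not start at 0. Igfbp2 is lower on all 3 Yap KO arrays than on any Yap HET array, and Igfbp7 is higher on all of them, while the groups overlap in Igf1, Igf2, Igf2r and Igfbp3.

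Neither ligand gene was called. Igf1, which encodes the ligand of IGF1R, read 701, 645 and 596 in Yap HET and 568, 736 and 806 in Yap KO cells. The lowest and the highest of the 6 values were both Yap KO arrays, replicates 1 and 3, so the groups overlapped on both sides. The log2 change was 0.11 ± 0.13, with a 95% interval from -0.19 to 0.40 (limma adjusted p = 0.62), the widest interval of the 10 genes. Without Yap KO replicate 1 it was 0.25 ± 0.08 (limma adjusted p = 0.117), and without Yap KO replicate 3 it was 0.001 ± 0.12 (limma adjusted p = 0.997). The size of any Igf1 difference therefore rests on which Yap KO array is included.

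Igf2, an imprinted gene expressed from the paternal allele and the main IGF ligand of the embryo, read 8032, 7781 and 7727 in Yap HET and 7535, 7875 and 7741 in Yap KO cells. The 6 values lay close together and the groups overlapped. The log2 change was -0.02 ± 0.05, and its 95% interval, from -0.14 to 0.09, leaves room for a level at most 1.10-fold lower or 1.06-fold higher (limma adjusted p = 0.78). The sign of the Igf2 change turned under quantile normalization and median centring of the arrays, where it was 0.02 and 0.04.

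None of the 3 receptor genes was called, and their measured differences were small. Igf1r, which encodes the receptor kinase that carries the growth signal of both ligands, read 1496, 1489 and 1524 in Yap HET and 1467, 1409 and 1324 in Yap KO cells. All 3 Yap KO values lay below all 3 Yap HET values, with a spread of 1.11-fold among the Yap KO arrays and 1.02-fold among the Yap HET arrays. The log2 change was -0.10 ± 0.05 (limma adjusted p = 0.26). Its 95% interval, from -0.23 to 0.02, allows an Igf1r level at most 1.17-fold lower or 1.02-fold higher in Yap KO cells.

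Insr, the insulin receptor gene, read 1730, 1570 and 1524 in Yap HET and 1811, 1809 and 1767 in Yap KO cells. The groups did not overlap, but Yap HET replicate 1 stood close to the Yap KO arrays. The log2 change of 0.16 ± 0.06 was not called (limma adjusted p = 0.13), although its own interval, from 0.02 to 0.30, was above 0. A dimmer probe set of the same gene read 1376 ± 43.7 and 1425 ± 50.4 (SD, n = 3 each), a log2 difference of 0.05, so the 2 probe sets of Insr differed in the size of the difference. Igf2r, the clearance receptor, read 5786, 5890 and 6078 in Yap HET and 5837, 6081 and 5740 in Yap KO cells, with overlapping groups. Its log2 change was -0.008 ± 0.05 (95% interval -0.12 to 0.11, limma adjusted p = 0.94), the smallest of the family. The sign of the Igf2r change turned under quantile normalization, median centring and array weights, at 0.03, 0.05 and 0.03.

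**Figure D2:**
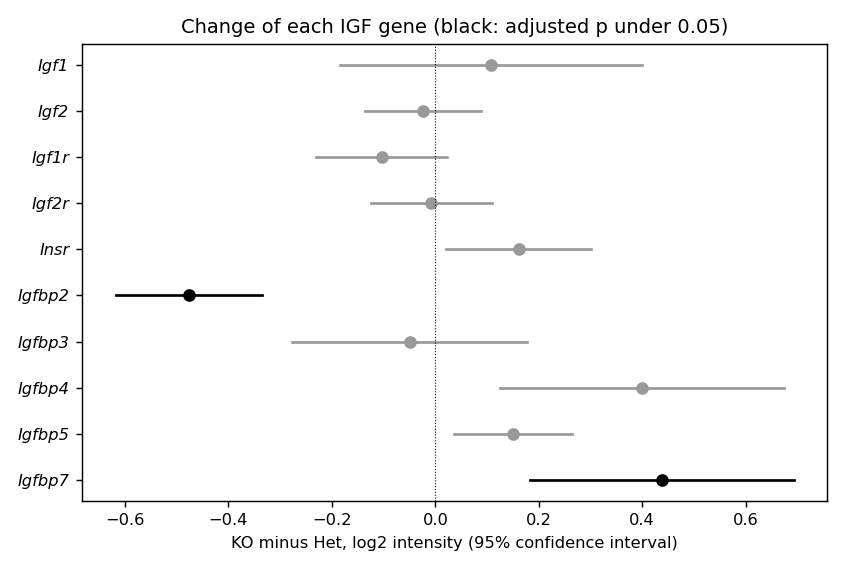
Log2 change of intensity, Yap KO minus Yap HET, for the 10 IGF genes, with points for the estimate and lines for the 95% confidence interval; black marks limma adjusted p under 0.05. Igfbp2 lies at -0.48 and Igfbp7 at 0.44, and the intervals of Insr, Igfbp4 and Igfbp5 are above 0 although these genes were not called.

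Igfbp2 had the largest change of the family and its lowest p-value. Igfbp2 encodes a secreted binding protein with higher affinity for IGF2 than for IGF1 that is abundant in embryonic tissues. Its intensity was 924, 958 and 906 in Yap HET and 620, 691 and 694 in Yap KO cells. The lowest Yap HET value was above the highest Yap KO value by more than the range within either group. The means were 929 ± 26.2 and 668 ± 41.7 (SD), a 1.39-fold lower level in Yap KO cells (log2 change -0.48 ± 0.06, 95% interval -0.62 to -0.34, limma adjusted p = 0.0048). Igfbp2 ranked 158 of 13632 genes by p-value, and 2.41% of all genes had a larger change. It passed the test with any single array left out, with log2 changes between -0.505 and -0.424 and limma adjusted p between 0.0119 and 0.0269.

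Igfbp5 lies next to Igfbp2 in the annotation, on the opposite strand of chromosome 1, and was not called. IGFBP5 is a matrix-associated binding protein. Igfbp5 read 4460, 4622 and 4670 in Yap HET and 5228, 5059 and 4974 in Yap KO cells. The Yap KO values were all higher, but the log2 change of 0.15 ± 0.05 was not called (95% interval 0.04 to 0.26, limma adjusted p = 0.096). As percentages of the Yap HET mean, the Yap KO arrays were at 66.8%, 74.4% and 74.7% for Igfbp2 and at 114%, 110% and 109% for Igfbp5. The neighbouring genes thus differed in the sign of their measured change, and the difference between them was not tested.

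Igfbp7 rose by a similar amount, with a wider spread. IGFBP7, also known as angiomodulin, is a secreted protein of the vessel wall and matrix. Its intensity was 1092, 967 and 820 in Yap HET and 1169, 1323 and 1393 in Yap KO cells. The groups did not overlap, but Yap HET replicate 1 and Yap KO replicate 1 were close. The means were 960 ± 136 and 1295 ± 114 (SD), a 1.35-fold higher level in Yap KO cells (log2 change 0.44 ± 0.11, 95% interval 0.18 to 0.69, limma adjusted p = 0.046). The call was lost without Yap HET replicate 2 (limma adjusted p = 0.0664), Yap HET replicate 3 (0.0899), or either of Yap KO replicates 2 (0.147) and 3 (0.134), with log2 changes between 0.33 and 0.54 over all 6 such fits. It was also lost without the filter on dim probe sets (limma adjusted p = 0.109).

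Igfbp4 had a change of nearly the same size that was not called. IGFBP4 restrains IGF action until the protease PAPP-A cuts it. Igfbp4 read 482, 401 and 501 in Yap HET and 517, 631 and 682 in Yap KO cells. All Yap KO values were higher, and Yap KO replicate 1 was only just above Yap HET replicate 3. The means were 461 ± 53.1 and 610 ± 84.2 (SD), with a log2 change of 0.40 ± 0.12 (95% interval 0.12 to 0.67, limma adjusted p = 0.074). Without Yap KO replicate 1 the Igfbp4 change was 0.51 and passed the test (limma adjusted p = 0.0357), as it did with the stricter filter on dim probe sets (0.0394) and with median centring (0.0203).

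Igfbp3, which encodes the main carrier of IGFs in serum, was not called. It read 224, 192 and 195 in Yap HET and 221, 174 and 196 in Yap KO cells, with overlapping groups. The log2 change was -0.05 ± 0.10 (95% interval -0.28 to 0.18, limma adjusted p = 0.78). The sign of the Igfbp3 change turned with median centring (0.01), and quantile normalization brought it to 1.25e-05.

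**Figure D3:**
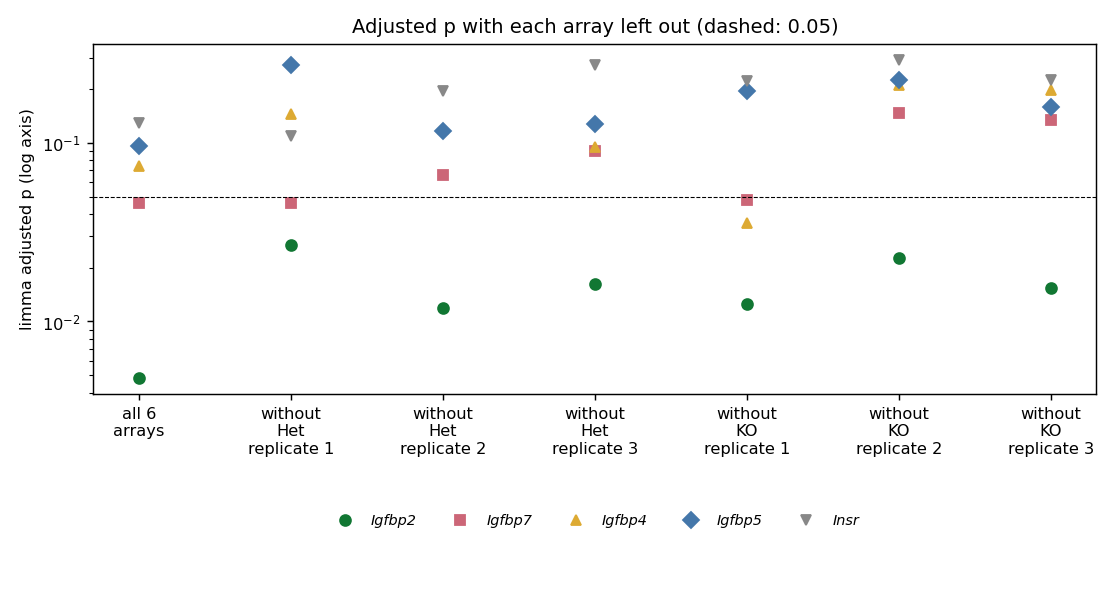
Limma adjusted p of 5 IGF genes with all 6 arrays and with each array left out in turn, on a log axis, with the threshold of 0.05 dashed. Igfbp2 stays under the line in every fit, Igfbp7 is under it in 2 of the 6 fits with an array left out, Igfbp4 in 1, and Igfbp5 and Insr in 0.

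The 10 genes differed in how much they varied between arrays of 1 group. The SD within a group on the log2 scale was 0.20 for Igf1, 0.19 for Igfbp4, 0.17 for Igfbp7 and 0.15 for Igfbp3, and lay between 0.03 and 0.07 for the other 6 genes, against a median of 0.08 over all genes. In Igf1, Igfbp4, Igfbp7 and Igfbp2 alike, Yap KO replicate 1 was the lowest and Yap KO replicate 3 the highest of the Yap KO arrays. As a percentage of the Yap HET mean, these arrays were at 87.7% and 124% for Igf1 and at 112% and 148% for Igfbp4. They were at 122% and 145% for Igfbp7, and at 66.8% and 74.7% for Igfbp2, which fell.

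The summed mesenchymal markers had the same order over the Yap KO arrays as Igf1, Igfbp4 and Igfbp7, and also as Igfbp2, which fell. Single markers did not all have it: Postn was highest and Dcn lowest on Yap KO replicate 2. Over Yap HET replicates 1, 2 and 3 the sum varied little, at 100%, 101% and 99.1% of the Yap HET mean. There Igf1 was at 108%, 99.6% and 92.1%, Igfbp4 at 104%, 86.9% and 109%, and Igfbp7 at 114%, 101% and 85.5%. The endothelial and mural sums were highest on Yap KO replicate 2 and the epicardial sum was lowest there. The summed intensity of 10 mesenchymal and cushion markers was between 7445 and 7553 on the Yap HET arrays and at 8298, 9104 and 10248 on Yap KO replicates 1, 2 and 3, which is 110%, 121% and 136% of the Yap HET mean. Of these 10 genes, 3 rose and 0 fell (0 lower at limma p under 0.05 before adjustment), against 5.16% of all genes higher and 4.76% lower, a background that holds for each marker count that follows. They were the receptor gene Pdgfra (log2 change 0.98 ± 0.10), the matricellular gene Postn (0.72 ± 0.13) and the cushion transcription factor gene Sox9 (0.39 ± 0.07). The list median was 0.35. Without Yap KO replicate 1, 7 of the 10 rose, and without Yap KO replicate 2 only Pdgfra did. The summed level of 10 endothelial and endocardial markers was between 1734 and 1834 in Yap HET and between 1958 and 2056 in Yap KO cells, with 2 rises and 1 fall among the 9 tested and a median of 0.13. Kdr (0.76 ± 0.05), a VEGF receptor gene, rose and did so with any single array left out. Nfatc1 (0.31 ± 0.08) rose, and of the 6 fits with an array left out it was called only without Yap KO replicate 1. Npr3 (-0.34 ± 0.06) fell, and was not called without Yap HET replicate 1. None of the 10 mesenchymal markers was under the filter on dim probe sets, and of the endothelial ones only Tie1 was. Some tested endothelial markers were still dim. Pecam1 had means of 82.5 in Yap HET, under the filter level, and 90.6 in Yap KO cells, above it. Cdh5 had means of 101 and 129, and neither gene was called with all 6 arrays. The part of mesenchymal and endothelial cells in the levels of Igf1, Igfbp4 and Igfbp7 was not tested.

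Other marker lists moved as follows. The 7 mural and smooth muscle markers summed to between 3812 and 4042 in Yap HET and between 4076 and 4381 in Yap KO cells, with 2 rises, in Pdgfrb (log2 change 0.73 ± 0.08) and Cspg4 (0.34 ± 0.07), and 0 falls (1 lower at limma p under 0.05 before adjustment). The 8 epicardial markers summed to between 3652 and 4361 and between 2657 and 3783, with 1 rise, in Tcf21 (0.93 ± 0.17), and 0 falls (4 lower at limma p under 0.05 before adjustment). The 5 compact layer markers had 2 falls, in Mycn (-0.48 ± 0.06) and Hey2 (-0.53 ± 0.10), and 0 rises (1 higher before adjustment). The 7 trabecular markers had 3 rises, in Irx3 (0.63 ± 0.10), Nppb (0.39 ± 0.08) and Nppa (0.19 ± 0.05), and 0 falls (0 lower before adjustment). The 6 atrial markers had 1 fall, in Nr2f1 (-0.29 ± 0.07), and 0 rises (1 higher before adjustment). Compact layer sums were between 12610 and 13078 in Yap HET and between 11010 and 11623 in Yap KO cells, and trabecular sums between 21803 and 22710 and between 24725 and 26057. Mycn, Irx3 and Pdgfrb kept their calls with any single array left out, whereas Nppa and Nr2f1 were called in none of the 6 fits with an array left out. Hey2, Nppb, Cspg4 and Tcf21 lost their calls in some of these fits. The part of the muscle layers in the Igfbp2 difference was not tested. Of the 10 cardiomyocyte, 5 macrophage, 3 erythroid and 2 neural markers tested, 0 were called by limma, while 2 cardiomyocyte and 3 macrophage markers were lower and 1 erythroid marker higher at p under 0.05 before adjustment.

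**Figure D4:**
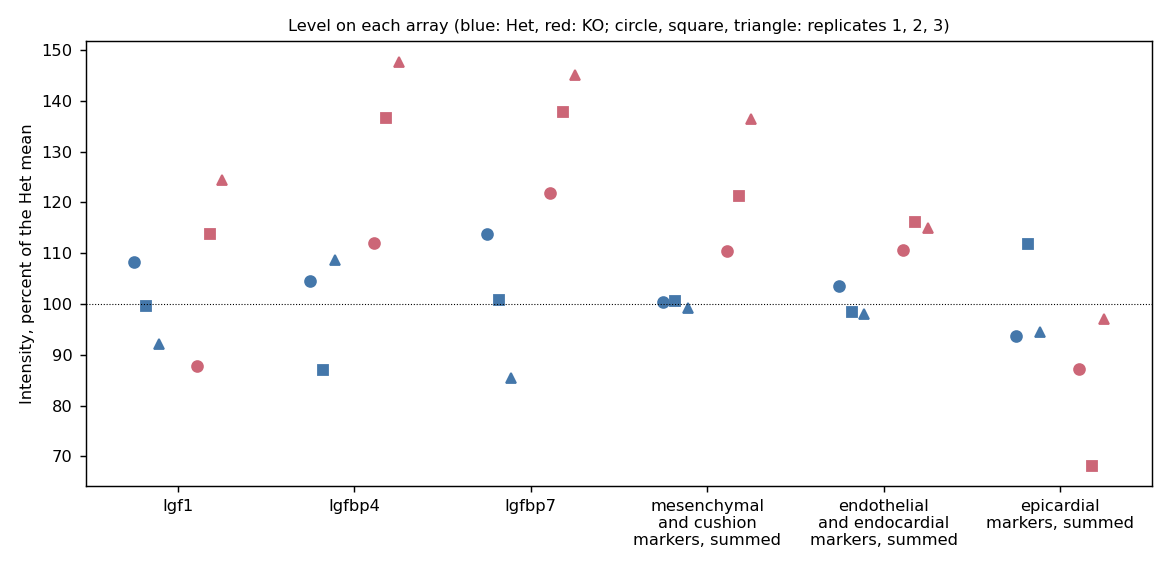
Intensity on each array as a percentage of the Yap HET mean for Igf1, Igfbp4 and Igfbp7 and for the summed markers of 3 other cell types (blue Yap HET, red Yap KO). In all 3 IGF genes and in the mesenchymal and cushion sum, Yap KO replicate 1 is the lowest and Yap KO replicate 3 the highest Yap KO array, whereas Yap KO replicate 2 is the lowest in the epicardial sum. Igfbp2, which fell and is not drawn, has the same order of Yap KO arrays as these 3 genes.

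The genes whose profiles over the 6 arrays were most like those of the called members were found from the root mean square difference of log2 values, each centred on the gene's own mean. For Igfbp2 they were Il17ra, a cytokine receptor gene (difference 0.034), Cracdl (0.042) and Cobll1 (0.043), with log2 changes of -0.53 ± 0.05, -0.44 ± 0.05 and -0.49 ± 0.06. For Igfbp7 they were the secreted Wnt antagonist gene Frzb (0.038), the chemokine receptor gene Ackr3 (0.049) and Eola1 (0.049), with log2 changes of 0.38 ± 0.12, 0.38 ± 0.10 and 0.36 ± 0.10. Of these, Ackr3 was called at the edge of the threshold (limma adjusted p = 0.0498), and Frzb (0.090) and Eola1 (0.056) were not. Frzb, like Igfbp7, had its highest Yap HET value on replicate 1 (287) and its lowest on replicate 3 (206). Such likeness takes in the group difference itself and is a description of 6 arrays.

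Promoter sequences of the family were searched for the core motif of TEAD factors, the DNA-binding partners of Yap, written CATTCC and searched on both strands (in capitals below, GGAATG where it lies on the other strand). The window was the 250 bases before each RefSeq start site in GRCm38.p6, and 9 of the 10 genes had 13 start sites in the table; Insr was not among them. The motif was in the windows of 2 of the 9 genes, Igf2 and Igfbp5, and in 4 of the 13 windows, 3 of which belong to Igf2, against 12.6% of 32851 promoter windows of all genes. It was in neither window of Igfbp2 and not in that of Igfbp7. The more upstream window of Igfbp2 and the window of Igfbp7 are shown, and the other Igfbp2 window is not. Also shown are that of Igfbp5, the neighbour of Igfbp2, and the Igf2 window that held the motif 2 times. Sequences are in lower case with the motif in capitals:
Igfbp2, chr1:72824230-72824479, plus strand: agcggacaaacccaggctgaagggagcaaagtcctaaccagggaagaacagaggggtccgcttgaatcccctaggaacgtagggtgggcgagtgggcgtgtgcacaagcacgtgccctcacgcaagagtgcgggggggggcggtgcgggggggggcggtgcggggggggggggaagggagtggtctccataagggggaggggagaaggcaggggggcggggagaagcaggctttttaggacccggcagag
Igfbp5, chr1:72874866-72875115, minus strand: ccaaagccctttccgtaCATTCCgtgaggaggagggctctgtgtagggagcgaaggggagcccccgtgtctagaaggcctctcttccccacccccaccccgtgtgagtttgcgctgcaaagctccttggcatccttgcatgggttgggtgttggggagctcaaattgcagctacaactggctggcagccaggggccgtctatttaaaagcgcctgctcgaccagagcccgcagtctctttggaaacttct
Igfbp7, chr5:77408046-77408295, minus strand: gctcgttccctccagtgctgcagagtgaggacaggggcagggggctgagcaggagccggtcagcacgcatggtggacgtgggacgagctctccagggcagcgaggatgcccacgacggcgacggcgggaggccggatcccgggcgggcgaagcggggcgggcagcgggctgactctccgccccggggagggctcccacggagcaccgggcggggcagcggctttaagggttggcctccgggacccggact
Igf2, chr7:142661272-142661521, minus strand: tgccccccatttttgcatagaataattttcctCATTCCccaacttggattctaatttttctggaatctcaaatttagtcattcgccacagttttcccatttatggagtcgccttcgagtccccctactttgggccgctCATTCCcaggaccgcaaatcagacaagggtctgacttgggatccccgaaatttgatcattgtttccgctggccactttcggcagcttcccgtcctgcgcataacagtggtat

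The first base of the motif lay 233 bases before the Igfbp5 start and 218 and 112 bases before this Igf2 start. A core of the hypoxia response element, ACGTG, searched on both strands, was in 4 of the 13 windows, 1 each of Igf2, Igf2r, Igfbp2 and Igfbp7, against 16.6% of all windows. The FoxO motif GTAAACA, also searched on both strands, was in 0 of the 13 windows, against 3.17% of all. A match is a run of letters and no evidence of binding, and the members with a TEAD match had log2 changes of -0.02 for Igf2 and 0.15 for Igfbp5, neither of them called.

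Genes that set how much IGF is free or made, outside the 10, moved in both directions. Of 14 listed, 13 had a probe set and 12 were tested; 3 rose and 2 fell, against 9.93% of all genes called, and the list median was -0.09 against -0.02 over all genes. Stc1, which encodes stanniocalcin-1, an inhibitor of PAPP-A proteases, read 96.1, 103 and 108 in Yap HET and 227, 204 and 144 in Yap KO cells, all of them higher (log2 change 0.88 ± 0.15, limma adjusted p = 0.0136). Pappa, the gene of the protease that cuts IGFBP4, rose from 102 ± 6.93 to 138 ± 13.2 (0.43 ± 0.08, limma adjusted p = 0.020). Both Stc1 and Pappa had Yap HET means little above the filter level of 85.7, so their changes may be understated. Htra1, a secreted serine protease gene, read 985, 919 and 764 in Yap HET and 1164, 1541 and 1216 in Yap KO cells (0.55 ± 0.13, limma adjusted p = 0.035). The falls were in Igfbpl1, which encodes a binding protein-like secreted protein (698 ± 30.6 to 551 ± 38.8, log2 change -0.34 ± 0.07), and Igf2bp1, which encodes an RNA-binding protein named for its binding to Igf2 mRNA (1709 ± 64.8 to 1451 ± 47.8, -0.24 ± 0.05), with limma adjusted p of 0.020 and 0.034.

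These 5 calls depended on single arrays. Without Yap HET replicate 1 they became 0, with limma adjusted p between 0.0585 for Stc1 and 0.117 for Igf2bp1. Removing Yap HET replicate 3 or Yap KO replicate 1 gave 3 calls in the list, and removing Yap KO replicate 2 or 3 gave 2. Without Yap KO replicate 3, Stc1 (limma adjusted p = 0.00236) was the only one of the 5 still called, and the other call was a different member. Igf2bp1 was also not called without Yap HET replicate 2, where the list had 5 calls with another member in its place. Igfbp1, the neighbour of Igfbp3, and Igfbp6 were not called, with log2 changes of -0.19 ± 0.07 and -0.21 ± 0.09 at means of 93.6 and 117 in Yap HET cells.

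Genes that carry or restrain the receptor signal to PI3K and RAS, listed with some insulin family ligands, had no call. Of 24 listed for IGF and insulin signal transduction, 21 were tested and 0 passed the threshold with limma, against 9.93% of all genes. Before adjustment 2 were higher and 2 lower at p under 0.05, against 1889 and 1962 of the 13632 genes, and the list median was 0.01. The smallest p-values belonged to Insl6, a relaxin family gene (log2 change 0.19 ± 0.07, limma adjusted p = 0.139), and Gigyf1, which encodes a GRB10-interacting protein (-0.14 ± 0.06, limma adjusted p = 0.153). With array weights, which call 4617 genes over all, 4 of the 21 passed.

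The imprinted growth genes, a set of parentally imprinted or coexpressed genes to which Igf2 is often assigned, had 1 rise and 1 fall among 15 tested, near the 9.93% of all genes called, and a list median of -0.02. Plagl1, which encodes an imprinted zinc finger factor known to regulate Igf2, fell: it read 3328, 3326 and 3425 in Yap HET and 2634, 2449 and 2445 in Yap KO cells. The groups were far apart relative to their spread (log2 change -0.42 ± 0.05, limma adjusted p = 0.0045), and Plagl1 stayed past the threshold with any single array left out (limma adjusted p between 0.00964 and 0.0277). Igf2 itself had a log2 change of -0.02 on the same arrays. Peg10, a paternally expressed gene derived from a retrotransposon, rose by 0.28 ± 0.07 at the edge of the threshold (limma adjusted p = 0.0498) and was lost without either of Yap HET replicates 1 and 3 or Yap KO replicates 2 and 3 (0.118 to 0.144). Sgce (0.16 ± 0.06) and Phlda2 (-0.20 ± 0.07) were next and not called. Removing Yap HET replicate 2 or Yap KO replicate 1 gave 3 calls in the list.

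FoxO factors are held out of the nucleus by AKT, and genes they induce tend to rise when insulin and IGF signalling is low. Of 21 FoxO genes and targets tested, Ccng2, an unconventional cyclin gene, rose and 0 fell, against 5.16% of all genes higher and 4.76% lower. Before adjustment 4 were higher and 4 lower at limma p under 0.05. The lower ones were Pdk4 (log2 change -0.17 ± 0.06), Bcl2l11 (-0.16 ± 0.06), Klf15 (-0.18 ± 0.08) and Foxo1, none of them called. The list median was 0.07. Ccng2 went from 486 ± 33.5 to 689 ± 31.7 (log2 change 0.50 ± 0.07, limma adjusted p = 0.0056) and passed with any single array left out. Trp53inp1 (0.18 ± 0.06, limma adjusted p = 0.076) and the muscle ubiquitin ligase gene Fbxo32 (0.28 ± 0.09, limma adjusted p = 0.085) came next and were not called. The factors themselves were not called either, at -0.14 ± 0.06 for Foxo1 and 0.13 ± 0.09 for Foxo3.

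**Figure D5:**
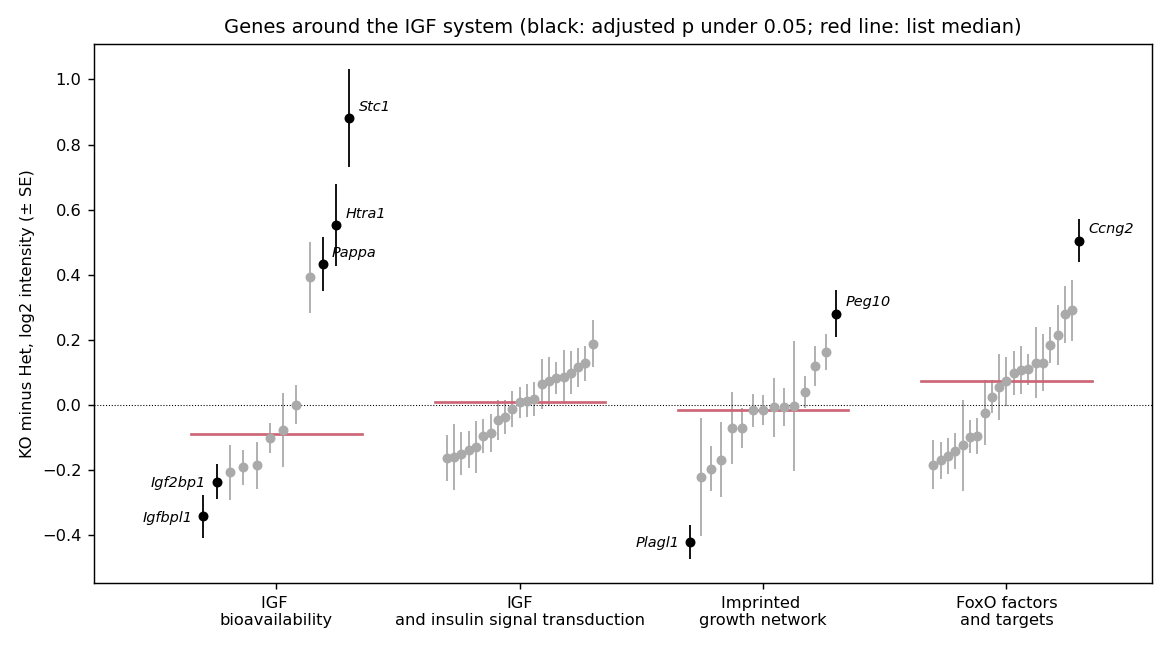
Log2 change of intensity, Yap KO minus Yap HET (± SE), for the tested genes of 4 lists around the IGF system, ordered by size within a list; black marks limma adjusted p under 0.05 and the red line the list median. The 5 called genes of IGF bioavailability lie on both sides of 0, whereas no gene of signal transduction is called.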

How the data were processed

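Probe set intensities of 6 arrays were deposited by the authors on a linear scale, from 2e-05 to 15701 over 35556 probe sets. They were made with RMA, per the submitters' processing notes. Its version, and why the values are not on its usual log2 scale, are not given in those notes. Each intensity was converted to log2. Names came from the platform annotation (21789 with 1 symbol, 1621 with several, 12146 with none), and 21698 symbols were matched through Entrez identifiers to the RefSeq table of GRCm38.p6. Each gene was its brightest probe set, and genes under the 40th percentile of probe set means (85.7) were left out. No detection call was used, so values near that level cannot be told from background.

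The test was limma 3.58.1 (R 4.3.3; lmFit, eBayes) with group as the only term, with Benjamini-Hochberg adjustment over 13632 genes and a threshold of 0.05. Nothing beyond the authors' description says that the replicates were separate embryos, so p-values measure the spread between these samples. On simulated data with 50 genes changed at each size among 13632, the test recovered 12%, 70%, 96% and 100% of log2 changes of 0.25, 0.5, 1 and 2, with 4 false calls among 143. Members and lists were chosen with earlier results of these data known. Named were all members, the list genes past the threshold, the next 2 by p where fewer than 3 passed, and the 3 genes nearest to each called member. In marker lists up to 3 called genes were named. Foxo1, Foxo3, Pdk4, Bcl2l11, Klf15, Igfbp1, Igfbp6, Tie1, Pecam1, Cdh5, Dcn, Hbb-y, Hba-x and Slc4a1 were chosen after their values were seen. Promoter sequences are from RefSeq, build GRCm38.p6. The alternatives were other filters, probe set summaries, normalizations, priors and weights, a replicate block, and each array left out.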

Additional observations from a re-analysis of the deposited data

How the results depend on the processing

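Igfbp2 kept its direction in all 16 alternatives and its call in all except the unmoderated linear model (-0.477, adjusted p = 0.0528). Igfbp7 kept its direction in all 16 and its call in 9; it was 0.438 and not called without a filter (adjusted p = 0.109), with the replicate block (0.102) and in the unmoderated model (0.175), and ranged from 0.330 to 0.536 with an array left out. Median centring changed the split of genes called from 704 higher and 649 lower to 1055 and 339. Genes called over all features went from 1353 to 508 with no filter, 1667 with the stricter filter, which tests fewer genes, 2246 with a trended robust prior, 4617 with array weights and 231 unmoderated, and ranged from 433 to 1375 with an array left out. The cause of the other shifts was not tested.

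IGF members called, 2 in the fit reported, were 1 with no filter, 5 with the trended prior, 4 with array weights and 0 unmoderated, and 1 to 3 with an array left out. Igfbp4 was called with the stricter filter (0.40), median centring (0.461), the trended prior (0.40) and array weights (0.371), and ranged from 0.302 to 0.514 with an array left out. Igfbp5 was called with the trended prior (0.150) and array weights (0.179), and Insr with the trended prior (0.161). Signs turned in genes that were not called: Igf2 with quantile normalization (0.016) and median centring (0.037), Igf2r with these (0.028 and 0.053) and array weights (0.029), and Igfbp3 with these normalizations (1.25e-05 and 0.012); with an array left out Igf2r ranged from -0.032 to 0.011 and Igfbp3 from -0.136 to 0.036. Igfbp3 was not tested under the stricter filter, which removes it.

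Of the lists, the pathway genes called, 8 in all, were 3 with no filter, 14 with the trended prior, 25 with array weights and 1 unmoderated, and 2 to 9 with an array left out. IGF bioavailability, 5, was 1, 8 and 0 with no filter, array weights and the unmoderated model, and 0 to 5 with an array left out. Imprinted genes, 2, were 1, 4 and 1 in the same settings, and 1 to 3 with an array left out. FoxO genes, 1, were 3 with the stricter filter or median centring, 5 with the trended prior, 9 with array weights and 0 unmoderated. Signal transduction genes, 0, were 4 with array weights.

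With the replicate block, 698 genes, 1 IGF member, 6 pathway genes and 1 imprinted gene were called. Deviations of same-numbered arrays correlated at -0.076, -0.171 and 0.124. Differently numbered arrays were not compared, so whether same-numbered arrays share more than a number was not tested. On simulated data 12% of log2 changes of 0.25 were recovered, so a gene not called may still have changed. The simulation dealt SDs to genes at random and changed 50 genes at each size. It therefore does not give the share of changes missed among the ligands and receptors.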
